A study of Mus musculus with 22 samples.

Results

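Kidneys of old mice fed nicotinamide were set against kidneys of young mice, gene by gene, to show which differences from the young kidney were present under the supplement. The members are the 8 libraries labelled as old mice supplemented with nicotinamide and the 6 labelled as young mice, 14 of the 22 libraries of the series, chosen by their labels. All 14 mice were male, wild type and of the strain C57BL/6JRj. Young mice were 4 months old and labelled control. The supplemented mice were 21 months old and had nicotinamide (NAM) mixed into the diet for 14 weeks, at a dose of 200 mg per kg body weight per day or 1.6 g per kg food. No young mice with the supplement are among the samples, so age and nicotinamide differ together in this comparison. The remaining 8 libraries, old mice of 21 months without the supplement, serve as a reference that shares its young controls with the comparison described here.

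Nicotinamide is the amide form of vitamin B3. Cells turn it into NAD through a salvage route that starts with Nampt, and remove it by methylation through Nnmt, an enzyme that consumes S-adenosylmethionine. NAD carries electrons in energy metabolism and is used up by sirtuins, PARP enzymes and the ectoenzyme Cd38. The ageing kidney is known for infiltrating leukocytes, a thicker extracellular matrix and injured proximal tubules, the segment that reabsorbs most filtered solutes and depends on mitochondrial oxidation.

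Reads were counted at the 3′ ends of polyadenylated transcripts, with 1 library per mouse. Library totals were 3351065 to 7184997 gene counts in young and 5663649 to 8319865 in nicotinamide-fed kidneys. Kidney markers were present in every library: Lrp2, the endocytic receptor of the proximal tubule, lay at 1015 to 1240 CPM (a gene's counts scaled to a common library size, after adjustment of library totals by TMM factors) in young and 689.7 to 1103 CPM in nicotinamide-fed kidneys. The adrenal gene Cyp11b1 was at 0 in all 14 libraries. A pair of nicotinamide-fed kidneys stood apart from the others. Replicate 7 held 413 CPM of summed T and natural killer cell markers, against 27.9 to 55.1 CPM in the other nicotinamide-fed kidneys. Replicate 1 had the lowest sum of proximal tubule S1 and S2 markers (9319 CPM, against 15800 to 18980 CPM in the other 7) and the highest sum of urothelial markers (166 CPM, against 7.51 to 92.8 CPM). Young replicate 6 had the fewest counts. Counts of genes are therefore also given without these 3 libraries and old replicate 7, referred to as without the 4 libraries.

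Of 14683 genes tested with edgeR's quasi-likelihood test, 1277 (8.7%) passed a Benjamini-Hochberg adjusted p below 0.05 between nicotinamide-fed old and young kidneys. Of these, 695 genes (4.73%) were higher and 582 (3.96%) lower under the supplement. Rises were the larger ones: 303 genes rose and 24 fell by at least 2-fold. In unsupplemented old against young kidneys these counts were 256 and 25. The filter on low counts did not treat both directions alike. A gene close to absent in young kidneys could pass it through any 6 of the old libraries, and one close to absent in old kidneys needed all 6 young libraries. The part of the filter in these counts was not tested. The median log2 fold change over all tested genes was 0.02. In 325 genes (2.21%) the ranges of both groups did not overlap, 166 (1.13%) of them higher and 159 (1.08%) lower with nicotinamide. Without young replicate 2 the count fell to 835 genes, 479 higher and 356 lower, and 794 of them were among the 1277. Without the 4 libraries it was 801 genes, 442 higher and 359 lower, with 718 shared. By the same test the old mice without the supplement differed from the same 6 young mice in 1034 genes (7.04%), 3.9% of all tested genes higher and 3.15% lower, a count of 670 without young replicate 2 and 668 without young replicate 4. Which old group differed from young in more genes depended on the setting: without the 4 libraries the unsupplemented count was 1031 against 801, with only the groups of each contrast in the fit it was 1399 against 974, and without fed replicate 1 it was 1305 against 1054.

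**Figure D1:**
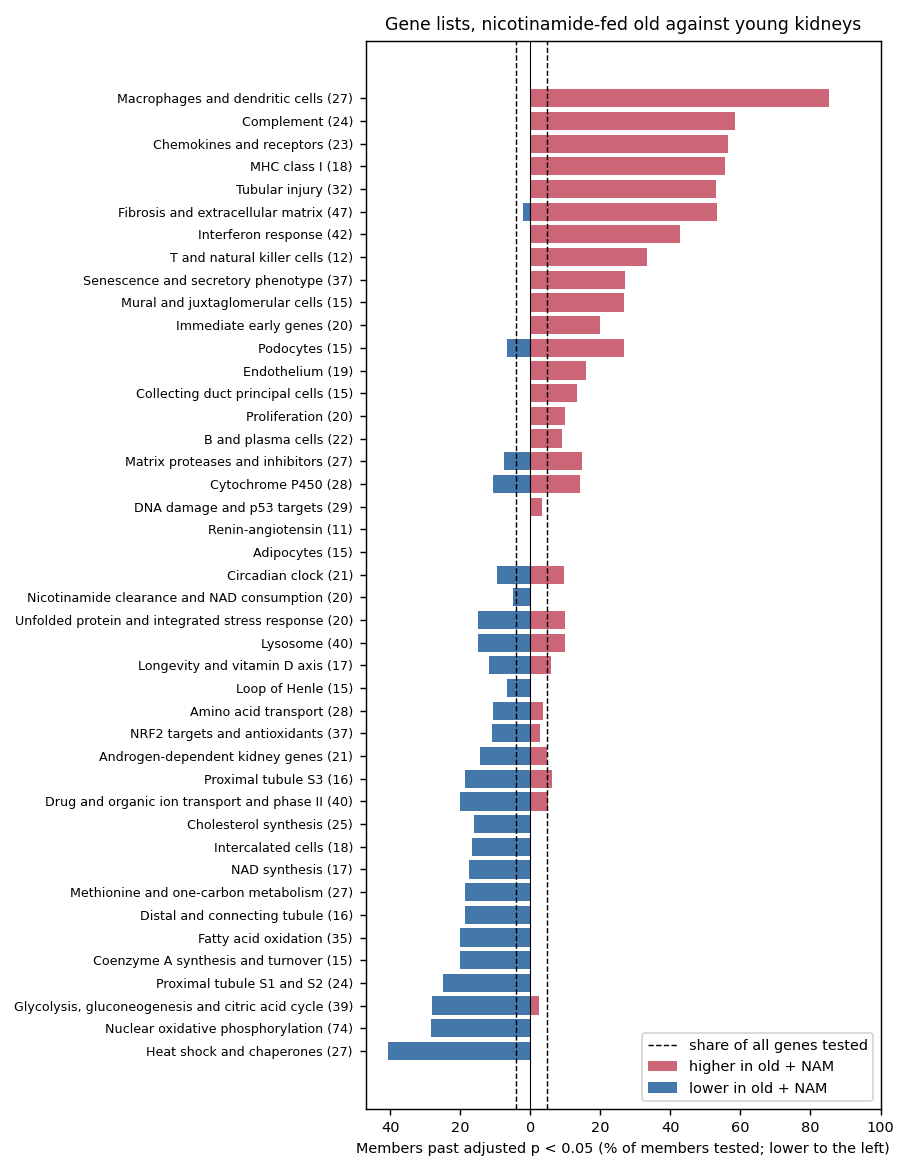
Genes per list that passed the test between nicotinamide-fed old and young kidneys, as a percentage of the list's tested members (higher to the right, lower to the left), with edgeR adjusted p below 0.05 as the threshold. Only lists with at least 10 tested members are drawn, and dashed lines mark the share over all genes tested, 4.73% higher and 3.96% lower. Lists of macrophages, complement, chemokines, MHC class I, matrix and tubular injury extend farthest to the right. Farthest to the left are chaperones, oxidative phosphorylation and the joint list of glycolysis, gluconeogenesis and the citric acid cycle.

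Transcripts of macrophages and dendritic cells were higher in nicotinamide-fed old kidneys across nearly the whole marker list. Of 27 members tested, 23 rose and 0 fell, where 4.73% of all tested genes were higher. The median log2 fold change was 1.39 against 0.02 over all genes. In 14 members the fed range lay above the young one without overlap, as in 1.13% of all tested genes. Laptm5, a lysosomal membrane protein of blood cells, lay at 11.6 to 20.3 CPM (median 15.8) in young and 34.0 to 67.6 CPM (median 43.8) in nicotinamide-fed kidneys. All 8 fed kidneys were above every young kidney, a rise of 1.49 ± 0.16 (log2 fold change ± SE, adjusted p = 2.44e-07). Fcer1g, the signalling chain shared by several antibody receptors, went from 8.56 to 15.3 CPM (median 11.1) to 21.5 to 45.2 CPM (median 27.3). Its ranges did not overlap either (1.35 ± 0.18, adjusted p = 3.23e-06).

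C1qb, a chain of the complement protein C1q that macrophages secrete, had 10.0 to 19.2 CPM (median 16.6) in young and 39.8 to 104 CPM (median 56.7) in fed kidneys, with no overlap (1.96 ± 0.23, adjusted p = 2.23e-05). Cx3cr1, the receptor of fractalkine on mononuclear phagocytes, was at 7.36 to 14.7 CPM (median 12.6) and 27.0 to 44.8 CPM (median 33.5), again without overlap (1.64 ± 0.23, adjusted p = 4.84e-05). Itgax, an integrin used as a dendritic cell marker, rose by 2.07 ± 0.38 (adjusted p = 0.000428). The lipid carrier Apoe rose by 1.39 ± 0.21 (adjusted p = 0.000428). Csf1r, the growth factor receptor of macrophages, did not pass (0.32 ± 0.12, adjusted p = 0.107), and neither did Lst1, Cd209a or Clec10a. The summed level of the list was 369 to 464 CPM in young and 756 to 1665 CPM in fed kidneys, with the highest value in replicate 1. Without the 4 libraries 20 members rose. In bulk tissue a higher level may come from more cells of a type or more RNA per cell, and these cannot be told apart. In the old kidneys without the supplement 19 of the 27 members rose, with a median of 1.37 against the same young kidneys. Between both old groups 0 of the 27 passed, with a median difference of 0.11.

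A further 4 genes with known roles in leukocytes were higher, and of these only Pou2f2 and Socs3 were among the 8 genes with the lowest p. Irf8 is also a member of the macrophage and dendritic cell list. Pou2f2, a transcription factor of B cells and myeloid cells, lay at 7.22 to 11.6 CPM (median 10.2) in young and 14.2 to 32.8 CPM (median 27.9) in fed kidneys. The ranges were separate (1.42 ± 0.18, adjusted p = 1.46e-06). Irf8, which directs the development of monocytes and dendritic cells, was at 27.7 to 40.2 CPM (median 31.5) and 50.1 to 67.8 CPM (median 55.1), also separate (0.76 ± 0.13, adjusted p = 9.06e-05). In unsupplemented old kidneys Irf8 was at 44.6 to 92.6 CPM (median 77.0), 1.13 ± 0.13 above young, and the difference of fed from unsupplemented old was −0.37 (95% interval −0.59 to −0.14, adjusted p = 0.523). Socs3, a feedback inhibitor of cytokine receptors, went from 1.25 to 6.16 CPM (median 3.01) to 7.70 to 19.6 CPM (median 13.1), with no shared values (2.05 ± 0.27, adjusted p = 2.68e-06). Msn, a linker of membrane and actin in leukocytes and endothelium, rose by 0.64 ± 0.10 (adjusted p = 3.25e-05).

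**Figure D2:**
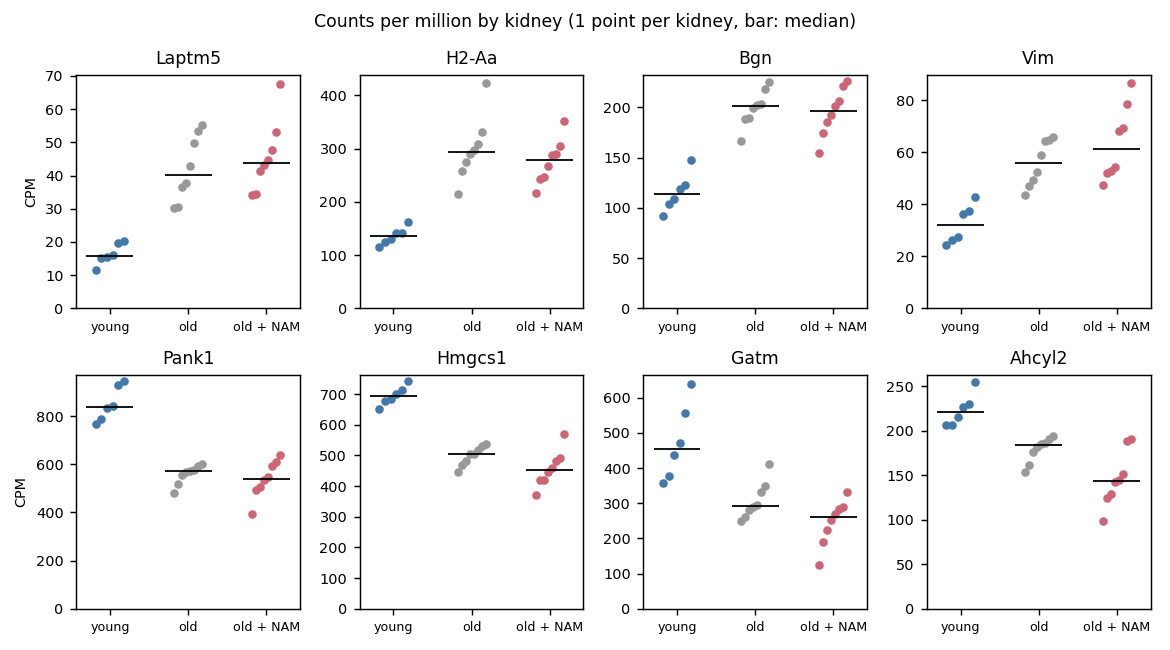
Level of 8 genes in each kidney, in CPM on a linear axis that starts at 0, for young (n = 6), old (n = 8) and nicotinamide-fed old (n = 8) mice; each point is 1 kidney and the bar is the group median. For all 8 genes no point of the nicotinamide-fed group falls within the young range: Laptm5, H2-Aa, Bgn and Vim lie above it, Pank1, Hmgcs1, Gatm and Ahcyl2 below it.

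MHC class II genes, which present antigen to helper T cells, were about 2-fold higher in the fed old kidney. Of 9 tested members 6 rose and 0 fell, where 4.73% of all tested genes were higher. The median was 1.09, and the count was 6 without the 4 libraries. H2-Aa had 116 to 163 CPM (median 136) in young and 217 to 352 CPM (median 278) in fed kidneys, with separate ranges (1.02 ± 0.12, adjusted p = 1.22e-06). H2-Eb1 went from 126 to 173 CPM (median 135) to 249 to 395 CPM (median 296) (1.09 ± 0.14, adjusted p = 1.98e-05). Cd74, the chain that escorts class II molecules, went from 86.5 to 132 CPM (median 99.5) to 186 to 291 CPM (median 225) (1.16 ± 0.14, adjusted p = 1.31e-05). None of the 3 genes had a fed kidney within the young range. H2-Ab1 rose by 1.21 ± 0.16, and the peptide-loading genes H2-DMa and H2-DMb1 by 0.97 ± 0.22 and 0.62 ± 0.15. Ciita, the regulator that switches class II genes on, differed by 0.21 ± 0.24 and did not pass (adjusted p = 0.673). H2-Aa differed by −0.12 (95% interval −0.33 to 0.09, adjusted p = 0.912) between fed and unsupplemented old kidneys.

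Class II promoters are known for a Y box, whose core ATTGG is bound by the factor NF-Y. The promoters of H2-Aa and H2-Eb1 are shown because these genes moved together and both windows hold the core. They run from 250 bases before to 50 bases after the start of the gene, in RefSeq's annotation of GRCm38.p6, at chr17:34287774-34288073 on the minus strand for H2-Aa and chr17:34305617-34305916 on the plus strand for H2-Eb1. Capitals mark ATTGG or its reverse complement.
H2-Aa: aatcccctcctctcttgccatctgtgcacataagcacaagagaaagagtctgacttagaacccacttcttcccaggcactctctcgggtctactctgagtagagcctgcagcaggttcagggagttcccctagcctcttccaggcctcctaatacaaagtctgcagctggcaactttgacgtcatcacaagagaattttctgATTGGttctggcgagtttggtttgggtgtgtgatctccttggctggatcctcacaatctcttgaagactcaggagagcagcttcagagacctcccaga
H2-Eb1: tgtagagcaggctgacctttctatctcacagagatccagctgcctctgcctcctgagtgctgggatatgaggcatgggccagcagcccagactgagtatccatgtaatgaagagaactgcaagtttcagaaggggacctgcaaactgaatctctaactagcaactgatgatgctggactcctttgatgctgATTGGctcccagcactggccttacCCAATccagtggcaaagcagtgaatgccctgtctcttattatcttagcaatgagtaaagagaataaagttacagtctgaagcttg
Of the 6 class II members that rose, 4 had a promoter in the table and 3 of these (75.0%) held ATTGG on either strand: H2-Aa, H2-Eb1 and H2-DMb1. Of all 27025 promoters of this length 37.9% held it, so a match in a single window is common.

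MHC class I genes and the machinery that loads them with peptides were higher as well, with a count that depended on single libraries. Of 18 tested members 10 rose and 0 fell, with a median of 0.81, where 4.73% of all tested genes were higher. B2m, the light chain of all class I molecules, was at 531 to 585 CPM (median 562) in young and 616 to 2043 CPM (median 876) in fed kidneys, with ranges that did not touch (0.87 ± 0.21, adjusted p = 0.0125). Tapbp, which holds empty class I molecules for loading, was at 81.1 to 128 CPM (median 106) and 128 to 262 CPM (median 145), also apart (0.63 ± 0.15, adjusted p = 0.00856). H2-Q6 rose by 1.48 ± 0.37, a call lost without fed replicate 7, and H2-K1 by 0.90 ± 0.24, a call lost without young replicate 1, 2 or 4. Class I heavy chain genes are near copies of each other, and reads may have been split between them. The summed level was 1124 to 1346 CPM in young and 1389 to 4150 CPM in fed kidneys, with 4150 CPM in replicate 7 and 2506 CPM in replicate 1. Without fed replicate 7 the count was 5. It was 4 without young replicate 1 or 2, 5 without young replicate 3 or 5, 3 without young replicate 4, and 5 without the 4 libraries. In unsupplemented old kidneys 3 members rose, and 9 did without the 4 libraries, so the order of both old groups turned.

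Complement genes, both the C1 initiators and regulators of the cascade, were raised. Of 24 tested members 14 rose and 0 fell (median 1.34), where 4.73% of all tested genes were higher. Without the 4 libraries 12 members rose. C3, the central component that tubules make when inflamed, lay at 6.72 to 18 CPM (median 13.0) in young and 22.1 to 103 CPM (median 29.1) in fed kidneys. The ranges were separate and the rise was 1.70 ± 0.35 (adjusted p = 0.00432). Serping1, the inhibitor of C1 proteases, went from 53.2 to 94.3 CPM (median 79.0) to 131 to 354 CPM (median 179.6), without overlap (1.31 ± 0.20, adjusted p = 0.000354). Cfi, the protease that inactivates C3b, rose by 2.74 ± 0.52 (adjusted p = 0.000507). C4b reached 43.8 CPM in 1 fed kidney and did not pass (1.38 ± 0.58, adjusted p = 0.162). Unsupplemented old kidneys had 13 of the 24 members higher (median 1.25), and 16 without the 4 libraries, so the order of both old groups turned. Between both old groups 0 of the 24 passed, with a median of 0.12.

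Chemokines and their receptors rose in 13 of 23 tested members, with 0 falls, where 4.73% of all tested genes were higher. Without young replicate 1 or fed replicate 3, 1 member fell. Ccr2, the receptor that draws monocytes out of the blood, was at 6.31 to 15.3 CPM (median 11.8) in young and 16.1 to 32.3 CPM (median 28.5) in fed kidneys, with no overlap (1.20 ± 0.22, adjusted p = 0.000755). Ccl9, a ligand for myeloid cells, was at 0 to 1.72 CPM (median 0.309) and 2.29 to 8.99 CPM (median 3.65), with no overlap (3.26 ± 0.53, adjusted p = 8.42e-05). Cx3cl1, the membrane-bound ligand of Cx3cr1, was at 40.9 to 62.7 CPM (median 50.5) and 59.5 to 88.0 CPM (median 74.0), with slightly overlapping ranges (0.52 ± 0.11, adjusted p = 0.00177). Ccl2, the ligand of Ccr2, rose by 1.91 ± 0.54 (adjusted p = 0.0203) and did not pass without young replicate 1. The count was 7 without young replicate 2, 8 without young replicate 1 or 6, 8 without the 4 libraries, and 6 with limma-voom. Unsupplemented old kidneys had 8 members higher and 1 lower than young. Of 31 listed members 8 did not pass the filter on low counts, and the count covers the others alone.

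Interferon-stimulated genes rose in 18 of 42 tested members, where 4.73% of all tested genes were higher. The fitted difference was above 0 in all 42 (median 1.19). Irf9, the DNA-binding part of the factor that interferon activates, was at 14.0 to 18.3 CPM (median 16.3) in young and 24.3 to 72.1 CPM (median 25.4) in fed kidneys. It was the only member whose ranges did not overlap (1.11 ± 0.24, adjusted p = 0.00559). Bst2, which tethers budding viruses to the cell, was at 2.55 to 7.05 CPM (median 4.16) and 6.93 to 56.5 CPM (median 17.4) (2.12 ± 0.43, adjusted p = 0.00401). Its lowest fed kidney lay just under the highest young one. Ifit3b, of a family that binds foreign RNA, was at 2.32 to 6.00 CPM (median 4.20) and 4.39 to 14.6 CPM (median 8.83), with overlap (1.19 ± 0.28, adjusted p = 0.00395). Ifit3 and Ifit3b are near copies, so their counts may be shared. Isg15 (1.36 ± 0.49, adjusted p = 0.0906) and Mx1 (2.58 ± 0.87, adjusted p = 0.0579) did not pass. The summed level was 382 to 492 CPM in young kidneys. It was 2173 CPM in fed replicate 7, 1051 CPM in fed replicate 1 and 490.0 to 674 CPM in the other 6. The count of 18 became 9 without young replicate 2, 10 without young replicate 4, 11 without young replicate 1, 9 without the 4 libraries, 9 with limma-voom and 8 with only both groups in the fit. It was 13 without fed replicate 7 and 12 without fed replicate 1. Without the 4 libraries the median was 0.64. Unsupplemented old kidneys had 10 members higher, and 20 without the 4 libraries.

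Interferon acts through promoter elements that hold GAAA and, after a gap of 2 bases, GAAA again, on either strand. The promoters of Bst2 and Ifit3b are shown because these genes were among the 3 members with the lowest p and hold 2 matches each. They lie at chr8:71537423-71537722 on the minus strand and chr19:34607707-34608006 on the plus strand (RefSeq, GRCm38.p6). Capitals mark this core or its reverse complement, and the matches overlap each other in Bst2.
Bst2: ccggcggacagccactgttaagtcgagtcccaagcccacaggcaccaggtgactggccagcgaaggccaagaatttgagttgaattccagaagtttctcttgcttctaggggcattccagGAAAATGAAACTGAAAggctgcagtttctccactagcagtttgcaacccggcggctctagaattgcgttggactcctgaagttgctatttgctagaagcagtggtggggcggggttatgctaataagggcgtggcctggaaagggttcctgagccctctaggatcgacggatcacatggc
Ifit3b: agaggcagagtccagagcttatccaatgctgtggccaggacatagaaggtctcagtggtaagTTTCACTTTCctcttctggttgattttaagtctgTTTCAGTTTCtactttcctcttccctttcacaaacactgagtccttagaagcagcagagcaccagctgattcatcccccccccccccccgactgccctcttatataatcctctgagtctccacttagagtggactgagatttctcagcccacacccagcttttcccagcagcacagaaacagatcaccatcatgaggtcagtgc
Of the 18 members that rose, 12 had a promoter in the table, and 8 of these (66.7%) held the core on either strand. The 8 were Ifi207, Ifi211, Ifi213, Gbp7, Bst2, Ifit1, Ifit3 and Ifit3b. Among all 27025 promoters 3.49% held it, and among the 10409 promoters of tested genes 3.09%. For MHC class I it was 1 of 9 promoters of members that rose (11.1%), that of B2m. The interferon list is made of genes known to respond to interferon, so a high share is a property of the list. Promoters of members that did not rise were not examined, and the share therefore says nothing about the rise. The windows of Ifit3 and Ifit3b are near copies with the same 2 matches, so the 8 are not independent.

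T cell and natural killer cell genes were rare in all kidneys, and only 12 of 25 markers passed the filter on low counts. Of these 4 rose, where 4.73% of all tested genes were higher, and 3 rose without the 4 libraries. A marker near 0 in young kidneys could pass that filter through the old kidneys alone, so the count describes these genes and not the whole list. Cd2, an adhesion receptor of T cells, lay at 0 to 0.627 CPM (median 0.0751) in young and 0.802 to 13.1 CPM (median 2.08) in fed kidneys. Although few reads carry it, the ranges were apart (3.99 ± 0.78, adjusted p = 0.000755). Thy1, a surface protein of T cells and some stromal cells, was at 0.672 to 2.84 CPM (median 1.56) and 3.04 to 43.7 CPM (median 6.62), also apart (2.61 ± 0.64, adjusted p = 0.0135). The receptor chain Cd3e was at 0 to 2.19 CPM (median 0.365) and 0.630 to 16.8 CPM (median 2.49) and did not pass (2.44 ± 0.96, adjusted p = 0.123). Ccl5 was at 1.59 to 4.54 CPM (median 3.76) and 3.64 to 166 CPM (median 7.98), with overlap (3.05 ± 0.94, adjusted p = 0.0484). Its call was lost in 17 of 31 alternatives, among them without fed replicate 7, without any 1 of the 6 young kidneys and without old replicate 1, 2, 3, 4, 5, 6 or 8. The list's count was 2 without young replicate 2 or 4, 1 with limma-voom, 7 with no filter on low counts and 8 with DESeq2.

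Antibody genes varied widely between kidneys of each group. Of 22 B and plasma cell markers tested, 2 rose (Ebf1 and Mzb1), where 4.73% of all tested genes were higher. The count was 1 without the 4 libraries, without any 1 of the young kidneys, without fed replicate 2, 3, 5, 6 or 7 and without old replicate 1, 3, 5 or 8. Unsupplemented old kidneys had 7 higher than the same young kidneys, with and without the 4 libraries. The median log2 fold change was 0.61 in fed and 1.32 in unsupplemented kidneys, and 0.93 and 1.41 without the 4 libraries. Igkc, the constant part of the main antibody light chain, was at 341 to 870.1 CPM (median 659.7) in young, 295 to 2519 CPM (median 966) in fed and 1088 to 3030 CPM (median 1907) in unsupplemented old kidneys. The fed kidneys spanned the young range and reached beyond it, and the difference from young did not pass (0.85 ± 0.40, adjusted p = 0.225). Ighm, the heavy chain of IgM, was at 7.98 to 127 CPM (median 49.7), 53.6 to 497 CPM (median 175) and 94.9 to 797 CPM (median 264) (1.69 ± 0.63 for fed against young, adjusted p = 0.106). Jchain, which joins antibodies into polymers, was at 20.1 to 63.1 CPM (median 43.9), 8.71 to 148 CPM (median 35.3) and 63.1 to 174 CPM (median 78.6) (0.02 ± 0.47, adjusted p = 0.990). The 3 genes therefore overlapped between fed and young kidneys. The direct test between both old groups passed for 0 of the 22 members (median −0.90), with Igkc at −0.86 (95% interval −1.63 to −0.09, adjusted p = 0.747) and Jchain at −1.08 (95% interval −1.98 to −0.18, adjusted p = 0.709). A difference between the old groups is thus not shown. The summed markers were 757 to 1726 CPM in young, 573 to 4646 CPM in fed and 2190 to 5557 CPM in unsupplemented old kidneys.

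**Figure D3:**
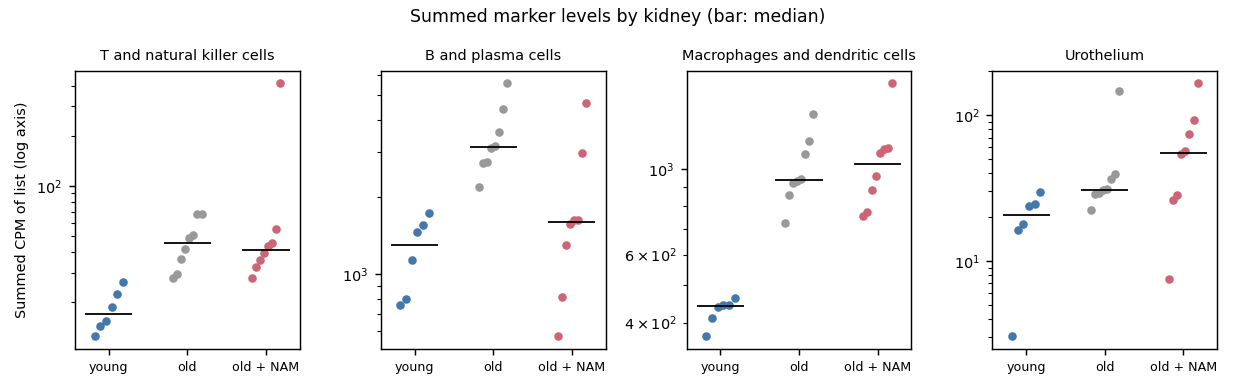
Summed CPM of marker lists of leukocytes and other admixed cells in each kidney, on a logarithmic axis; each point is 1 kidney and the bar is the group median. Macrophage markers of all nicotinamide-fed kidneys (756 to 1665 CPM) lie above the young ones (369 to 464 CPM), and 1 fed kidney lies at 413 CPM of T and natural killer cell markers.

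Many extracellular matrix genes were raised. Of 47 tested members of the fibrosis list 25 rose and 1 fell, where 4.73% of all tested genes were higher and 3.96% lower. The list's median was 0.68, and 17 rose and 1 fell without the 4 libraries. Bgn, a small proteoglycan of the interstitium, lay at 91.5 to 148 CPM (median 114) in young and 155 to 226 CPM (median 197) in fed kidneys. All fed kidneys were above the young range (0.75 ± 0.10, adjusted p = 1.75e-06). Vim, the intermediate filament of mesenchymal cells, went from 24.5 to 42.6 CPM (median 31.9) to 47.4 to 86.7 CPM (median 61.2), with no overlap (0.97 ± 0.14, adjusted p = 2.79e-05). Mgp, an inhibitor of calcification in matrix, went from 176 to 352 CPM (median 243) to 391 to 589.6 CPM (median 472), with no overlap (0.92 ± 0.14, adjusted p = 0.000108).

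Of the fibrillar collagens Col1a2 rose by 0.94 ± 0.14, Col1a1 by 0.93 ± 0.22 and Col3a1 by 0.58 ± 0.14. Col1a2 had separate ranges, the other two did not, and Col3a1 did not pass without the 4 libraries. Fn1, which links cells to collagen, rose by 0.92 ± 0.22 (adjusted p = 0.00645). Mmp14, a membrane-bound collagenase, was at 9.87 to 16.2 CPM (median 12.7) and 20.8 to 32.0 CPM (median 27.6) (1.07 ± 0.16, adjusted p = 3.50e-05). The single fall was Timp3, an inhibitor of metalloproteases made by tubules, from 2663 to 3417 CPM (median 3023) to 1766 to 2607 CPM (median 2174), with separate ranges (−0.46 ± 0.08, adjusted p = 0.000199). Timp1, another inhibitor of that family, rose by 2.67 ± 0.64. The summed level of the list, much of it Timp3, overlapped between young (4372 to 5288 CPM) and fed kidneys (4533 to 5461 CPM). Between both old groups 0 of the 47 members passed, with a median of 0.00.

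Markers of injured tubules rose in 17 of 32 tested members (median 0.61), where 4.73% of all tested genes were higher. Without the 4 libraries 15 members rose. Another member fell without young replicate 1 or fed replicate 3. S100a11, a calcium-binding protein of stressed epithelium and stroma, had the lowest p of all genes. It lay at 77.7 to 102 CPM (median 87.0) in young and 139 to 222 CPM (median 186) in fed kidneys, apart by a wide gap (2.15-fold, 1.10 ± 0.10, adjusted p = 1.22e-09). Havcr1, which encodes the injury marker KIM-1, was at 0.473 to 4.8 CPM (median 1.43) and 3.24 to 16.7 CPM (median 9.21), with 1 or more fed kidneys inside the young range (2.51 ± 0.46, adjusted p = 0.00117). Its difference between both old groups was 0.00 (95% interval −0.74 to 0.73, adjusted p = 1.0). Lcn2, which encodes the injury marker NGAL, was at 0.725 to 6.61 CPM (median 3.07) and 10.4 to 133 CPM (median 17.1), with no overlap (3.35 ± 0.68, adjusted p = 0.00399). The highest Lcn2 value was that of replicate 1, and the next was 27.2 CPM. Of the 32 members of the list, unsupplemented old kidneys had 17 higher and 1 lower than young (median 0.61). Between both old groups 1 member passed, S100a11.

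Vcam1, an adhesion molecule of endothelium and of tubule cells that fail to recover, rose by 1.38 ± 0.20 (adjusted p = 6.30e-05). Spp1, the secreted protein osteopontin, was at 122 to 204 CPM (median 143) and 219 to 587 CPM (median 236), without overlap (0.86 ± 0.21, adjusted p = 0.0134). Sox9, a transcription factor of repairing tubules, rose by 1.25 ± 0.33 (adjusted p = 0.0158), while the keratin Krt8 differed by −0.09 ± 0.17 and did not pass (adjusted p = 0.836).

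Senescence genes gave a mixed picture. Of 37 tested members of the senescence and secretory list 10 rose and 0 fell (median 0.42), where 4.73% of all tested genes were higher. The count was 7 without the 4 libraries and 6 with limma-voom. Cdkn1a, the cell cycle inhibitor p21, was at 27.1 to 57.9 CPM (median 37.5) in young and 35.7 to 93.3 CPM (median 51.1) in fed kidneys. These ranges overlapped and the gene did not pass (0.53 ± 0.19, adjusted p = 0.0945). The other cell cycle inhibitors tested in this list, Cdkn1b, Cdkn2b and Cdkn2c, did not pass either. Cdkn1c, a cell cycle inhibitor from the podocyte list, did pass (0.55 ± 0.12, adjusted p = 0.00251). It also passed in unsupplemented old against young kidneys (0.57 ± 0.12, adjusted p = 0.00235). Apart from Ankrd1, a regulator of transcription, the members of the senescence list that rose encode secreted or membrane proteins. Serpine2, an inhibitor of serine proteases, was at 27.7 to 42.2 CPM (median 38.7), 43.8 to 94.8 CPM (median 61.4) and, in unsupplemented old kidneys, 68.6 to 101 CPM (median 82.0). Fed kidneys lay between in median, and apart from young (0.86 ± 0.13, adjusted p = 2.23e-05), and their difference from unsupplemented old did not pass: −0.30 (95% interval −0.53 to −0.08, adjusted p = 0.643). Icam1, an adhesion molecule that binds leukocytes, rose by 1.22 ± 0.19 (adjusted p = 5.70e-05), and Gpnmb, a glycoprotein of macrophages and senescent cells, by 3.54 ± 0.86 (adjusted p = 0.00607). Of 29 tested p53 targets 1 rose, where 4.73% of all tested genes were higher. It was Phlda3 (1.11 ± 0.23, adjusted p = 0.00144), a repressor of Akt signalling. The count of p53 targets was 2 without fed replicate 5 or young replicate 3.

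Nuclear genes of oxidative phosphorylation were lower in fed old kidneys by small and even margins. Of 74 tested members 21 fell and 0 rose (median −0.21), where 3.96% of all tested genes were lower. The fitted difference was above 0 in 5 members. Atp5b, the catalytic subunit of ATP synthase, was at 871 to 997 CPM (median 976) in young and 578 to 861 CPM (median 738) in fed kidneys, below all young values (−0.39 ± 0.07, adjusted p = 0.000650). Ndufa6, a subunit of complex I, was at 341 to 418 CPM (median 356) and 197 to 330.2 CPM (median 275), also apart (−0.46 ± 0.09, adjusted p = 0.00136). Uqcrfs1, the iron-sulfur subunit of complex III, was at 262 to 363 CPM (median 313) and 171 to 268 CPM (median 202), with a slight overlap (−0.54 ± 0.10, adjusted p = 0.000755). Ranges were apart in 10 of the 74 members, against 1.08% over all genes. The count was 13 without the 4 libraries. Unsupplemented old kidneys had 22 members lower (median −0.22), and the median difference between both old groups was 0.01 with 0 members passing. Of 7 mitochondrially encoded transcripts 1 fell, mt-Nd5 (−0.32 ± 0.09, adjusted p = 0.0163), where 3.96% of all tested genes were lower. This count was 0 without young replicate 6 and without the 4 libraries, and 2 without fed replicate 3 or 5.

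Some genes of glycolysis, gluconeogenesis, the citric acid cycle and fatty acid oxidation were lower as well. Of 39 tested genes of glycolysis, gluconeogenesis and the citric acid cycle 11 fell and 1 rose. Over all tested genes 4.73% were higher and 3.96% lower. Without the 4 libraries 6 members of this list fell. Suclg2, a subunit of succinyl-CoA ligase, was at 48.9 to 77.9 CPM (median 72.2) in young and 37.7 to 55.7 CPM (median 46.5) in fed kidneys (−0.56 ± 0.11, adjusted p = 0.000999). Fbp1, a gluconeogenic enzyme of the proximal tubule, was at 511 to 633 CPM (median 576) and 226 to 499 CPM (median 396), with separate ranges (−0.56 ± 0.11, adjusted p = 0.00144). Ranges of Suclg2 overlapped. The member that rose was Hk2, a hexokinase induced in injured cells (1.61 ± 0.45, adjusted p = 0.0180), and it did not pass without fed replicate 1 or 2. In fatty acid oxidation 7 of 35 members fell (median −0.17), where 3.96% of all tested genes were lower. The count was 4 without the 4 libraries. Acadm, the medium-chain acyl-CoA dehydrogenase, was at 475 to 653 CPM (median 589) and 393 to 507 CPM (median 428) (−0.39 ± 0.08, adjusted p = 0.00150). Hadh, an enzyme of a later step of the same pathway, was at 477 to 598 CPM (median 539) and 334 to 475 CPM (median 404), apart from young (−0.40 ± 0.08, adjusted p = 0.00173). The regulators Ppargc1a (−0.22 ± 0.09, adjusted p = 0.111) and Ppara (−0.10 ± 0.14, adjusted p = 0.744) did not pass.

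Among the genes with the lowest p were 2 that fell, in coenzyme A and sterol synthesis. Pank1, which starts coenzyme A synthesis, was at 766 to 944 CPM (median 839.6) in young and 394 to 641 CPM (median 541) in fed kidneys. No value was shared (−0.66 ± 0.08, adjusted p = 2.12e-06). The coenzyme A degrading enzyme Nudt19 was at 629 to 904 CPM (median 712) and 194 to 556 CPM (median 421), with no shared value (−0.82 ± 0.18, adjusted p = 0.00646), so both a synthetic and a degrading enzyme were lower. In that list 3 of 15 members fell, where 3.96% of all tested genes were lower. The third was Acot12 (−0.57 ± 0.12). Hmgcs1, an early enzyme of cholesterol synthesis, was at 652 to 744 CPM (median 692) and 371 to 569 CPM (median 454), with separate ranges (−0.60 ± 0.08, adjusted p = 2.12e-06). Of 25 tested members of that pathway 4 fell, where 3.96% of all tested genes were lower. The count was 2 without young replicate 4 and 2 without the 4 libraries.

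Methionine and one-carbon genes supply the methyl groups by which nicotinamide is cleared. Of 27 tested members 5 fell and 0 rose (median −0.22), where 3.96% of all tested genes were lower. Unsupplemented old kidneys had 4 lower and 0 higher (median −0.21), and between both old groups 0 passed, with a median of 0.02. Ahcyl2, a relative of the enzyme that hydrolyses S-adenosylhomocysteine, was at 206 to 255 CPM (median 221) in young, 98.4 to 191 CPM (median 144) in fed and 154 to 194 CPM (median 184) in unsupplemented old kidneys. Fed kidneys were all below the young range (−0.61 ± 0.10, adjusted p = 8.42e-05), and the difference between both old groups did not pass: −0.29 (95% interval −0.48 to −0.10, adjusted p = 0.537). Gatm, the first enzyme of creatine synthesis and a proximal tubule marker, was at 356 to 639 CPM (median 455), 124 to 333 CPM (median 261) and 250.1 to 412 CPM (median 292). Fed and young ranges were apart (−0.94 ± 0.18, adjusted p = 0.00228), and the lowest fed value was that of replicate 1. The count was 2 without young replicate 2 or 4, 3 without young replicate 5 or 6 or fed replicate 1 or 7, and 2 without the 4 libraries. Ahcy, the hydrolase itself (0.19 ± 0.17, adjusted p = 0.544), and Mat2a, which makes S-adenosylmethionine (−0.17 ± 0.09, adjusted p = 0.257), did not pass.

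Of 17 tested genes of NAD synthesis 3 fell and 0 rose (median −0.13), where 3.96% of all tested genes were lower, and 1 fell and 1 rose without the 4 libraries. Without young replicate 6, too, 1 rose. Unsupplemented old kidneys had 2 lower and 0 higher (median −0.18), and 0 passed between both old groups. Nampt, the entry point of the salvage route for the fed compound, was at 97.7 to 111 CPM (median 106) in young and 79.0 to 126 CPM (median 96.7) in fed kidneys. These ranges overlapped fully and the difference of −0.09 ± 0.10 did not pass (adjusted p = 0.686). Nadk, which phosphorylates NAD to NADP, was at 86.9 to 105 CPM (median 98.0) and 67.0 to 85.8 CPM (median 73.8), with separate ranges (−0.35 ± 0.09, adjusted p = 0.00895), though it did not pass without the 4 libraries. Acmsd, which diverts tryptophan breakdown away from NAD, was at 111 to 176 CPM (median 129) and 66.4 to 124 CPM (median 97.2), with overlap (−0.51 ± 0.13, adjusted p = 0.00895). In unsupplemented old kidneys Acmsd was at 94.6 to 150.0 CPM (median 117) and did not pass against young (−0.26 ± 0.13, adjusted p = 0.236); the difference between both old groups was −0.25 (95% interval −0.49 to −0.01, adjusted p = 0.782). Nadk2, the mitochondrial NAD kinase, fell by 0.54 on the log2 scale (adjusted p = 0.0338), a call lost without young replicate 2 or 6 or fed replicate 1, 3, 4 or 7.

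Of 20 tested genes of nicotinamide clearance and NAD consumption 1 fell, where 3.96% of all tested genes were lower. The gene that fell was Sirt1, a nuclear deacetylase. It was at 15.0 to 24.9 CPM (median 21.3) in young and 11.3 to 18.1 CPM (median 14.3) in fed kidneys, with overlap (−0.51 ± 0.17, adjusted p = 0.0458), and the call was lost in 12 of 31 alternatives. Among single libraries it was lost without young replicate 2, 3, 4 or 5 and without fed replicate 1, 2, 5, 7 or 8. In this list 1 member rose without fed replicate 5, 6 or 8, young replicate 5 or old replicate 5. Cd38 (−0.09 ± 0.29, adjusted p = 0.904), Parp1 (0.02 ± 0.11, adjusted p = 0.949) and Sirt3 (−0.23 ± 0.11, adjusted p = 0.230) did not pass. Nnmt, the methyltransferase named in the series title, was too low for the filter: 0 to 6 counts per young and 3 to 12 per fed kidney. Fed kidneys held 1.07 ± 0.496 CPM (mean ± SD, n = 8) against 0.382 ± 0.425 CPM (n = 6) for the young ones, a difference of 0.691 CPM (two-sided exact permutation p = 0.0213), and 8 of 8 fed kidneys were above the young mean. The ranges overlapped: fed replicates 4, 6 and 7 (0.481, 0.676 and 0.451 CPM) lay below young replicate 2 (0.870 CPM). In unsupplemented old kidneys Nnmt was at 1.21 ± 0.618 CPM (n = 8), and fed kidneys differed from them by −0.132 CPM (two-sided exact permutation p = 0.657).

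Chaperone genes were lower in fed old kidneys. Of 27 tested members 11 fell and 0 rose (median −0.39), where 3.96% of all tested genes were lower. Unsupplemented old kidneys had 4 members lower (median −0.30). Hspd1, the mitochondrial chaperonin, was at 111 to 129 CPM (median 121) in young and 56.6 to 96.7 CPM (median 83.5) in fed kidneys, with separate ranges (−0.59 ± 0.10, adjusted p = 0.000240). Dnajb1, a partner of the Hsp70 chaperones, was at 25.4 to 65.0 CPM (median 26.7) and 11.3 to 23 CPM (median 18.3), also separate (−0.89 ± 0.18, adjusted p = 0.00146). Hspa5, the chaperone of the endoplasmic reticulum, was at 623 to 1470 CPM (median 936) and 472 to 782 CPM (median 587), with overlap (−0.66 ± 0.16, adjusted p = 0.0124), and did not pass without the 4 libraries. Dnajb1 and Hspa5 did not pass in unsupplemented old kidneys (adjusted p = 0.0566 and adjusted p = 0.302). Their differences between both old groups did not pass either, at −0.34 (95% interval −0.69 to 0.00, adjusted p = 0.800) and −0.36 (95% interval −0.68 to −0.05, adjusted p = 0.727). Young replicate 3 had the highest sum of the list (7777 CPM, against 4696 to 6045 CPM in the other young and 3991 to 5325 CPM in fed kidneys). The count was 7 without that kidney and 5 without the 4 libraries, where unsupplemented old kidneys had 3 lower. Between both old groups 0 of the 27 members passed, with a median of −0.09.

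Among antioxidant genes Gclm, a subunit of the enzyme that limits glutathione synthesis, was at 285 to 348 CPM (median 312) in young and 192 to 259 CPM (median 219) in fed kidneys, with separate ranges (−0.50 ± 0.08, adjusted p = 3.72e-05). Sod2, the mitochondrial superoxide dismutase, fell by 0.41 on the log2 scale (adjusted p = 0.00165). Ephx1, an epoxide hydrolase, rose by 0.69 ± 0.15 (adjusted p = 0.00251). Of the list's 37 members 1 rose, Ephx1, and 4 fell, where 4.73% of all tested genes were higher and 3.96% lower. The rises were 2 without fed replicate 3 or old replicate 7.

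Proximal tubule markers of the S1 and S2 segments fell in 6 of 24 tested members (median −0.28), where 3.96% of tested genes were lower. The count of these markers was 7 without the 4 libraries and 3 without young replicate 2. Their summed level was 18850 to 22510 CPM in young and 9319 to 18980 CPM in fed kidneys. Slc17a1, a phosphate and urate transporter, was at 345 to 404 CPM (median 391) in young and 191 to 356 CPM (median 306) in fed kidneys, with overlap (−0.36 ± 0.10, adjusted p = 0.0115). Slc34a1, the main phosphate transporter (−0.32 ± 0.12, adjusted p = 0.102), and Slc5a2, the main glucose transporter (−0.44 ± 0.17, adjusted p = 0.117), did not pass. In the S3 segment 3 of 16 members fell and 1 rose, where 4.73% of all tested genes were higher and 3.96% lower. Without young replicate 2 or 3, 0 rose. Slc5a8, a lactate transporter, was at 157 to 211 CPM (median 182) and 75.3 to 145 CPM (median 119.9), with separate ranges (−0.67 ± 0.10, adjusted p = 3.39e-05). Of 40 transporters and conjugating enzymes of drugs 8 fell and 2 rose, where 4.73% of all tested genes were higher and 3.96% lower. The rises were 0 without young replicate 2 and 1 without young replicate 1 or 6, fed replicate 1 or the 4 libraries. Slc22a2, an organic cation transporter, was at 741 to 844 CPM (median 780.0) and 372 to 655 CPM (median 584), with separate ranges (−0.49 ± 0.09, adjusted p = 0.000332), and the cation exporter Slc47a1 fell by 0.37 on the log2 scale (adjusted p = 0.00404).

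Lysosomal genes went both ways, with 4 of 40 members higher and 6 lower. The falls were 3 without young replicate 2 or 4. Over all tested genes 4.73% were higher and 3.96% lower. Unsupplemented old kidneys had 3 of the 40 members higher and 7 lower. Psap, the precursor of proteins that help degrade sphingolipids, was at 1015 to 1315 CPM (median 1178) in young and 632 to 1051 CPM (median 834) in fed kidneys, with overlap (−0.48 ± 0.09, adjusted p = 0.000243). Ctss, a protease of antigen-presenting cells, was at 20.1 to 27.7 CPM (median 24.8) and 39.0 to 89.3 CPM (median 50.7), with ranges apart (1.29 ± 0.24, adjusted p = 0.00223). Cd68, a lysosomal glycoprotein of macrophages, was at 1.57 to 3.48 CPM (median 2.54) and 4.51 to 10.8 CPM (median 6.61), also apart (1.47 ± 0.31, adjusted p = 0.00167). Both of the latter belong to the macrophage list as well.

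Cytochrome P450 genes, which oxidise sterols, lipids and drugs, rose in 4 and fell in 3 of 28 members. Over all tested genes 4.73% were higher and 3.96% lower. Unsupplemented old kidneys had 3 of the 28 members higher and 3 lower. Cyp51, an enzyme of cholesterol synthesis, was at 176 to 264 CPM (median 230.4) in young and 80.8 to 190.4 CPM (median 146) in fed kidneys (−0.64 ± 0.13, adjusted p = 0.00228). Cyp2d26 was at 41.1 to 73.5 CPM (median 58.5) and 31.1 to 52.0 CPM (median 36.9) (−0.58 ± 0.13, adjusted p = 0.00340). Cyp2a5 was at 15.5 to 37.2 CPM (median 30.2) and 27.9 to 128 CPM (median 68.7) (1.41 ± 0.30, adjusted p = 0.00646), and its reads may be shared with the near copy Cyp2a4. Ranges overlapped in all 3 genes. Aoc1, a histamine-degrading enzyme from the list of androgen-dependent kidney genes, was at 0.580 to 4.65 CPM (median 2.91) and 4.37 to 12.3 CPM (median 11.7), with overlap (1.83 ± 0.32, adjusted p = 0.000210). In that list 1 of 21 members rose and 3 fell, where 4.73% of all tested genes were higher and 3.96% lower. Unsupplemented old kidneys had 1 member higher and 7 lower. In fed kidneys the rises were 2 without fed replicate 1. Without the 4 libraries fed kidneys had 2 higher and 5 lower, and unsupplemented old kidneys 2 higher and 12 lower. Igf1, the growth factor that mediates growth hormone action, was at 7.98 to 18.3 CPM (median 10.8) and 16.4 to 31.5 CPM (median 18.6), with overlap (0.77 ± 0.20, adjusted p = 0.00980).

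Markers of tissue next to the kidney cortex were measured as well. Urothelial markers had sums of 3.05 to 29.6 CPM in young and 7.51 to 166 CPM in fed kidneys. Of 9 such markers 2 rose, Gsdmc2 and Upk1b, where 4.73% of all tested genes were higher. That count was 0 without young replicate 2, 4 or 6 or fed replicate 1, 2, 4 or 6, 1 without young replicate 3 or 5 or old replicate 3, and 4 without fed replicate 7. Of 15 adipocyte markers 0 passed by edgeR's test, with a median of 1.64, and 0.97 without the 4 libraries. An unadjusted p below 0.05 was found for 8 of them, and for 3220 of all 14683 tested genes. In unsupplemented old kidneys the list's median was 0.53 against young, and −0.31 without the 4 libraries. Between both old groups the median was 1.295, with 0 members passing. DESeq2 and limma-voom each called 1 member, Pck1, lower, as edgeR did without fed replicate 2. Pck1 is also in the list of proximal tubule S1 and S2 markers. Lipe was higher without fed replicate 3. Of 9 blood cell markers 0 passed by edgeR's test, with 1 at an unadjusted p below 0.05, fewer by share than over all tested genes. It was the platelet chemokine Pf4, which was called by DESeq2 and without young replicate 6 or fed replicate 2, 3 or 5. The part of such tissue in the differences described here was not tested.

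Segments beyond the proximal tubule had called genes in several lists. Of 16 distal and connecting tubule markers 3 fell and 0 rose, where 3.96% of all tested genes were lower. The falls were 6 without young replicate 3, 5 without fed replicate 5, and 5 each with DESeq2 and limma-voom. Klk1, tissue kallikrein of the connecting tubule, was at 489 to 684 CPM (median 598) in young and 198 to 458 CPM (median 326) in fed kidneys, with separate ranges (−0.77 ± 0.14, adjusted p = 0.00146). Calb1, a calcium carrier of that segment, was at 192 to 263 CPM (median 227) and 93.3 to 200.2 CPM (median 153), with overlap (−0.55 ± 0.13, adjusted p = 0.00918). The hormone co-receptor gene Kl, klotho, was at 262 to 365 CPM (median 316) and 161 to 296 CPM (median 228), also with overlap (−0.49 ± 0.10, adjusted p = 0.00124). Car2, the carbonic anhydrase of intercalated cells, was at 179.5 to 246 CPM (median 204) in young, 129.8 to 161 CPM (median 141) in fed and 152 to 201 CPM (median 167) in unsupplemented old kidneys. Fed and young kidneys shared no value (−0.54 ± 0.08, adjusted p = 3.10e-05), and the difference between both old groups was −0.29 (95% interval −0.44 to −0.13, adjusted p = 0.355). Of the 18 intercalated cell markers 3 fell, where 3.96% of all tested genes were lower. The count was 5 without fed replicate 8 and 1 without the 4 libraries. Stc1, a secreted regulator of calcium and phosphate, was at 6.69 to 15.8 CPM (median 8.44) and 16.2 to 26.7 CPM (median 19.9), with separate ranges (1.14 ± 0.18, adjusted p = 5.06e-05). Of 15 podocyte markers 4 rose and 1 fell, where 4.73% of all tested genes were higher and 3.96% lower. In unsupplemented old kidneys 6 rose and 0 fell. The marker that fell was Clic5, a channel-family protein of foot processes (−0.33 ± 0.11, adjusted p = 0.0458), a call lost without the 4 libraries, with limma-voom and without young replicate 2, 4 or 6, fed replicate 1, 3, 5 or 6 or old replicate 2. Among those that rose was Synpo, an actin-binding protein of foot processes, from 37.1 to 46.8 CPM (median 43.5) to 50.4 to 71.1 CPM (median 58.5) (0.47 ± 0.11, adjusted p = 0.00402). Umod of the thick ascending limb (0.30 ± 0.19, adjusted p = 0.401) and Aqp2 of principal cells (0.79 ± 0.39, adjusted p = 0.239) did not pass.

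Among genes with a mean of at least 2 CPM in either group, the largest fitted rises concerned genes that were close to absent in young kidneys. Dio2, which activates thyroid hormone, had 3 counts over all 6 young libraries, 4 of them at 0, and 196 counts over the 8 fed libraries. The ratio of pooled CPM was 43.6 (exact 95% interval 14.7 to 213, for counting error alone), and each fed kidney was above every young one. The fitted log2 fold change of 4.97 ± 0.98 (adjusted p = 0.00102) depends on the prior count that edgeR adds. Lilr4b, an inhibitory receptor of myeloid cells with a near copy in the genome, had 4 young and 133 fed counts (4.21 ± 0.80, adjusted p = 0.000607). Flg, filaggrin of cornified epithelium, had 4 and 109 counts (3.95 ± 0.82, adjusted p = 0.00146). Fed and young ranges were apart in both. Grem1, an antagonist of bone morphogenetic proteins, was at 0 to 0.788 CPM (median 0) in young, 0.347 to 5.96 CPM (median 2.80) in fed and 2.06 to 7.47 CPM (median 3.54) in unsupplemented old kidneys. The rise under the supplement was 3.74 ± 0.66 (adjusted p = 0.000261), and 1 fed kidney lay within the young range. Cxcl13, which attracts B cells, rose by 3.52 ± 0.96 (adjusted p = 0.0264), a call lost without young replicate 2, 3 or 4.

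**Figure D4:**
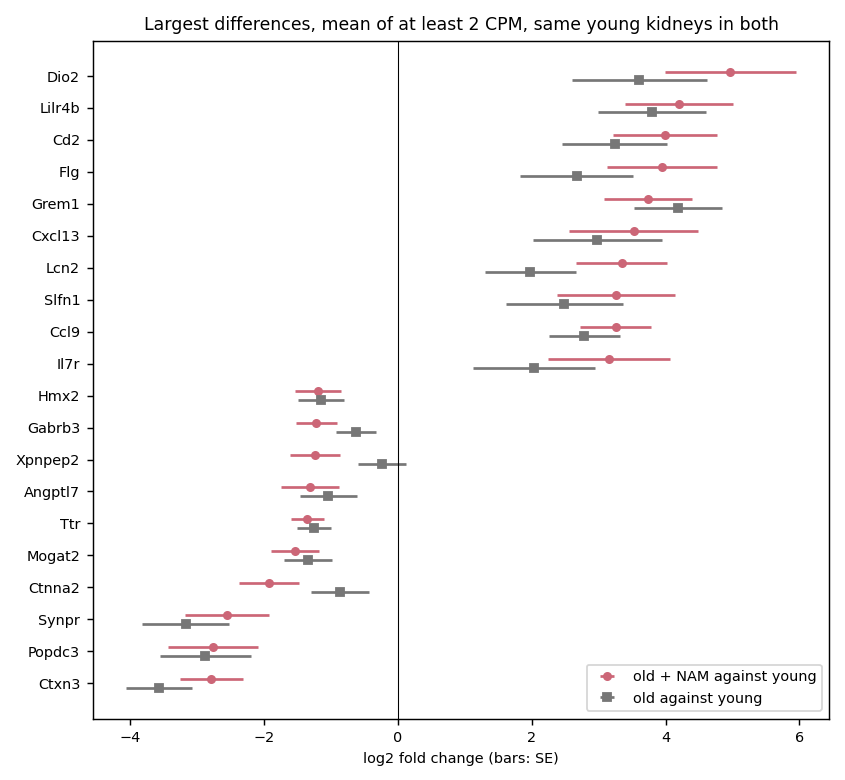
Log2 fold change with its SE for the 10 largest rises and the 10 largest falls among genes that passed the test, with a mean of at least 2 CPM in either group and a known symbol, in nicotinamide-fed old against young kidneys (circles), beside the values of unsupplemented old against the same young kidneys (squares). Both series of points use the same 6 young libraries; Dio2 at 4.97 and Ctxn3 at −2.79 are the ends for the nicotinamide-fed kidneys.

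By the same limit, the largest falls were in genes of low to moderate level. Ctxn3, which encodes a short single-pass membrane protein, was at 7.41 to 18 CPM (median 15.6) in young and 0 to 3.12 CPM (median 2.42) in fed kidneys, with no overlap (−2.79 ± 0.47, adjusted p = 0.000315). Popdc3, a membrane protein that binds cyclic AMP, was at 2.23 to 10.2 CPM (median 6.53) and 0 to 2.08 CPM (median 0.715), with no overlap (−2.77 ± 0.67, adjusted p = 0.00804). Ttr, the carrier of thyroxine and retinol, was at 119 to 226 CPM (median 143) and 30.8 to 103 CPM (median 67.4), with no overlap (−1.35 ± 0.25, adjusted p = 0.00209). The 3 genes were also lower in unsupplemented old kidneys, at −3.56 ± 0.49, −2.88 ± 0.68 and −1.25 ± 0.25 against the same young mice. Ctnna2, a catenin of cell junctions, was at 2.55 to 7.99 CPM (median 3.73) in young, 0.601 to 2.43 CPM (median 0.999) in fed and 1.14 to 4.58 CPM (median 2.12) in unsupplemented old kidneys. Tmed6, a cargo receptor of the secretory pathway, was at 10.4 to 15.8 CPM (median 12.5), 3.50 to 7.98 CPM (median 6.05) and 6.47 to 18 CPM (median 8.87). Fed kidneys were below all young ones in both genes (Ctnna2 −1.93 ± 0.44, adjusted p = 0.00398; Tmed6 −1.17 ± 0.23, adjusted p = 0.000829). Neither passed in unsupplemented old against young (adjusted p = 0.239 and adjusted p = 0.363), and the direct differences between both old groups did not pass: −1.06 (95% interval −1.92 to −0.20, adjusted p = 0.690) for Ctnna2 and −0.80 (95% interval −1.24 to −0.36, adjusted p = 0.367) for Tmed6.

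Whether a difference from young is larger or smaller under the supplement was tested directly between both old groups, where the young libraries cancel. In this contrast 4 of 14683 genes (0.0272%) passed, 2 higher and 2 lower (0.0136% each), while 907 had an unadjusted p below 0.05. DESeq2 gave 9 and limma-voom 3. With 1 library left out the count was 1 without old replicate 1 or 6 or fed replicate 6, 2 without old replicate 2, 5 or 8, young replicate 1 or fed replicate 3, 5 or 7, and 9 without fed replicate 1. S100a11 was at 109 to 181 CPM (median 127) in unsupplemented old kidneys, between the young and fed levels given above, and differed by 0.51 (95% interval 0.33 to 0.69, adjusted p = 0.0110) between both old groups. That call was lost without old replicate 1 or 6 or fed replicate 6. Its rise over young was 0.59 ± 0.10 without and 1.10 ± 0.10 with nicotinamide. Arf3, a small GTPase of vesicle traffic, was at 38.3 to 62.5 CPM (median 49.7) in young, 36.3 to 52.0 CPM (median 44.4) in unsupplemented and 52.7 to 71.3 CPM (median 61.0) in fed old kidneys. It did not pass against young (0.31 ± 0.11, adjusted p = 0.0599) and passed between both old groups: 0.48 (95% interval 0.29 to 0.68, adjusted p = 0.0458). This call was lost in 18 of 31 alternatives, among them without the 4 libraries, without old replicate 1, 2, 4, 5, 6, 7 or 8, without fed replicate 3, 4, 5, 6, 7 or 8 and without young replicate 1 or 2.

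The remaining 2 genes are a ribosomal RNA gene and a predicted transcript, named here after their values were seen. The ribosomal RNA gene CT010467.1 was lower in fed kidneys than in young (−0.32 ± 0.08, adjusted p = 0.00633) and than in unsupplemented old kidneys: −0.51 (95% interval −0.65 to −0.36, adjusted p = 0.000166). Its share of counts was 3.74% ± 0.456 (SD, n = 8) in fed and 4.38% ± 0.198 (n = 6) in young kidneys (two-sided exact permutation p = 0.00799, adjusted over 6 library measures 0.0480). The adjusted p was above 0.05 without any 1 of the young kidneys and without fed replicate 3, 4, 5 or 6. Gm38319 was at 15.4 to 23 CPM (median 19.3) in young, 12.8 to 29.3 CPM (median 17.3) in unsupplemented and 3.62 to 13.2 CPM (median 9.60) in fed old kidneys. Fed kidneys were below all young ones (−1.01 ± 0.21, adjusted p = 0.00144) and the difference between both old groups was −0.99 (95% interval −1.39 to −0.60, adjusted p = 0.0391). The latter call was lost in 13 of 31 alternatives, among them without old replicate 1, 2, 5, 6 or 8, without fed replicate 2, 3, 5, 6 or 7 and without young replicate 1. Without the 4 libraries this contrast gave 6 genes: S100a11, CT010467.1 and Gm38319 again, and mt-Rnr2, Itga6 and Zfp106. Arf3 was not among them. Depth and the share of ribosomal RNA differ between libraries, and their part in these 4 differences was not tested.

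**Figure D5:**
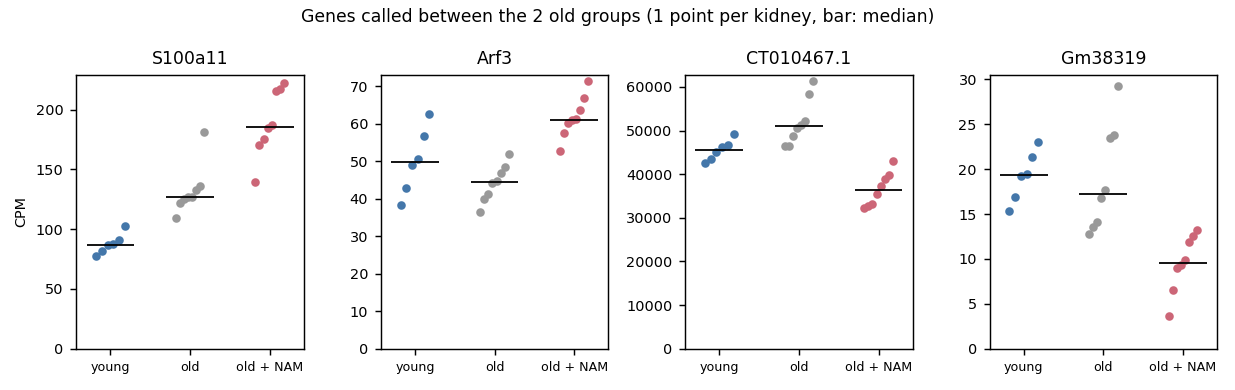
Level in CPM, on linear axes that start at 0, of the 4 genes that passed between nicotinamide-fed and unsupplemented old kidneys, with the young kidneys beside them (n = 8, 8 and 6); each point is 1 kidney and the bar the group median. S100a11 rises in median from 87.0 in young to 127 in old and 186 CPM in fed kidneys, and Gm38319 is lowest in the fed kidneys.

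A set of 8 genes passed in unsupplemented old against young kidneys and not in fed against young kidneys, and was picked for the lowest p between both old groups, so its values are a description only. Zwint, a kinetochore protein, was at 37.4 to 55.1 CPM (median 47.5) in young, 39.4 to 54.7 CPM (median 46.4) in fed and 26.0 to 43.6 CPM (median 34.6) in unsupplemented old kidneys. Fed and young medians were close, and the unsupplemented ones lower. Thsd7a, a podocyte membrane protein, was at 20.6 to 32.1 CPM (median 24.5), 19.3 to 29.4 CPM (median 27.1) and 27.1 to 42.1 CPM (median 36.1), higher in the unsupplemented kidneys. Srd5a2, a steroid reductase, was at 3.63 to 12.2 CPM (median 7.24), 1.42 to 11.5 CPM (median 7.53) and 0.736 to 5.79 CPM (median 3.14). The fitted differences between fed and young lay between −0.11 and 0.25 for these 8 genes (among them Zwint, Phf12, Thsd7a, Pgm1, Itpripl2, Sp5 and Srd5a2). None of the 8 passed between both old groups, where adjusted p values were 0.324 to 0.535, so a different level under the supplement is not shown for them.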

How the data were processed

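Kidney RNA of 22 mice was measured by 3′ end counting; 14 libraries enter the comparison and 8 serve as a reference. Per the labels, the authors prepared libraries from polyadenylated ends, and per the submitters' processing notes they used STAR and HTSeq. The deposited values are raw read counts per gene, 1 column per library. The build named in the notes is GRCh38, a human one, while the identifiers are those of mouse genes, so no gene coordinates are printed. Tool versions, the treatment of duplicates and use of strand: not given in the sources used here. Antisense and near-identical genes may share counts. Entries that name no gene were left out; reads in no annotated feature made up 19.1% to 23.6% of gene, featureless and ambiguous reads in the 14 libraries.

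Genes were kept with edgeR's filterByExpr (minimum count 10, minimum total 15, smallest group 6), which kept 14683 of 55487 genes and 99.75% of counts. A quasi-likelihood model with TMM scaling was fitted to all 22 libraries with edgeR 4.0.16 in R 4.3.3. It gave 3 contrasts, each adjusted by Benjamini-Hochberg over all tested genes with a threshold of 0.05. Errors beside log2 fold changes are SE, and CPM are counts scaled to the TMM-adjusted total, as explained in the report. Single values used two-sided exact permutation tests. The pipeline was tested on simulated data. The members and the 50 gene lists were chosen with earlier results of these data known. Genes were named by rule: the 12 largest rises and falls among called genes with a mean of at least 2 CPM in either group, the 8 lowest p, up to 3 called members per list with the lowest p, genes called in both nicotinamide contrasts, the 8 lowest p of old against young, 8 genes called in old kidneys alone, and the NAD genes. Other list members, among them Csf1r, C3, Havcr1, Cdkn1a and the antibody genes, were named after their values were seen. Alternatives were DESeq2 1.42.0, limma-voom (limma 3.58.1), RLE scaling, TMM without ribosomal and mitochondrial genes, no filter, at least 20 counts in 6 libraries, the groups of 1 contrast at a time, a replicate block, leaving out 4 libraries, and leaving out each library in turn. Promoters came from a RefSeq table of GRCm38.p6, matched by symbol. Replicate libraries differed by 5.83 to 39.3 in chi-square per degree of freedom over 43 pairs in both groups, so none was a repeat of another. A few genes that the rule names are not reported here.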

Additional observations from a re-analysis of the deposited data

Results flagged for a closer look

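Single kidneys that lay far from the rest of their group, by the gap to the nearest other value on a log2 scale, were looked for in the genes with the largest changes and the lowest p; chance marks about 1 in 20 groups. In young kidneys Lilr4b was at 0.672 CPM in replicate 5 and at 0 in the others. Angptl7 was at 1.27 CPM in young replicate 6, with 4.26 CPM as the nearest other value. Adamts15, a matrix protease gene, was at 87.4 CPM in young replicate 3, next to 27.8 CPM. Pou2f2 was at 7.22 CPM in young replicate 5, next to 9.91 CPM. In fed kidneys Grem1 was at 0.347 CPM in replicate 8, next to 2.20 CPM. Lcn2 was at 133 CPM in replicate 1, next to 27.2 CPM. The T cell genes Il7r and Ccl5 were at 58.0 and 166 CPM in replicate 7, next to 6.32 and 8.82 CPM.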

How the results depend on the processing

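With 1 library left out, nicotinamide-fed against young kidneys gave 835 to 1438 genes, 479 to 740 higher and 356 to 698 lower, and without the 4 libraries 801, 442 and 359. Other settings gave 974 (only both groups in the fit) to 1582 genes (DESeq2); limma-voom gave 1147, of which 46.0% were higher against 54.4% with edgeR. Unsupplemented old against young gave 668 to 1305 genes with 1 library left out, 267 to 653 of them lower. Between both old groups, leaving out 1 library gave 1 to 9 genes, 0 to 3 higher and 1 to 6 lower. There, no filter gave 7 genes (5 lower), DESeq2 9 (6 lower), and omission of the 4 libraries 1 higher and 5 lower; limma-voom and the replicate block each gave 1 higher, and the fit of only both groups 1 lower. The share of ribosomal RNA, −0.648 percentage points in fed against young, was −0.751 to −0.562 with 1 library left out and −0.676 without young replicate 6 and fed replicates 1 and 7; its adjusted p was above 0.05 in 10 of the former sets and in the latter. Fed libraries detected 759 to 1012 genes more than young ones in these sets. The cause of these shifts was not tested. Same-numbered libraries did not deviate together over the tested genes (20 pairs, r −0.0820 to 0.0587, 0 over 0.1). A weak pairing by number, or one limited to few genes, would not show in this check. The replicate block gave 1081 genes, 588 higher and 493 lower. Of 139 named genes that passed, 96 passed in all 31 settings, 0 changed direction, and 245 of 4287 gene and setting combinations lost the call; 11 calls were gained among 41 other named genes. Genes under a few CPM rest on few counts, and a missing call at that level does not show equal expression.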
